A study of Mus musculus with 4 samples.

Results

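Triple regions are stretches of the mouse genome where reads of 3 chromatin immunoprecipitation libraries, MCAF1, Ring1b and H4K20me3, all piled up above background while the REST library did not reach the limit for a call. There were 479 of them among 2044 MCAF1 regions, or 23.4% (21.6% to 25.3%, exact 95% Clopper-Pearson interval). Members were found by counting distinct reads in windows of 1 kb placed every 500 bp. Background was the genome mean of the library or its mean over the surrounding 1 Mb, whichever was larger. A call required 5-fold enrichment over that background and a Poisson probability no higher than 1e-09. Overlapping windows were joined into regions, and a member is an MCAF1 region that shares at least 1 bp with a Ring1b region and with an H4K20me3 region, but with no REST region. All 4 libraries therefore took part in choosing the members, and their read numbers there are given as a description without a test.

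MCAF1, also known as ATF7IP, is a nuclear partner of SETDB1, the enzyme that trimethylates lysine 9 of histone H3 at silenced genes and retroviral elements. Ring1b is the catalytic subunit of Polycomb repressive complex 1 and places ubiquitin on histone H2A, mostly at unmethylated CpG-rich promoters of developmental genes in embryonic stem cells. H4K20me3 is laid down by the SUV420H enzymes and is best known from pericentromeric heterochromatin and from repeats that also carry methylated lysine 9 of histone H3. Ring1b and H4K20me3 are thus usually described in different kinds of silent chromatin, and MCAF1 belongs to the machinery of the second kind. REST binds DNA directly and silences neuronal genes outside the nervous system.

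The cells were V6.5 mouse embryonic stem cells of mixed C57BL/6 and 129 strain, without any treatment. They were kept off their fibroblast feeders for 2 passages before the MCAF1, Ring1b and H4K20me3 experiments and for 1 passage before the REST experiment. Each antibody was represented by 1 library from its own flow cell, so antibody and sequencing run cannot be told apart and no value below has a replicate error. Libraries were cut from gels at 150 to 300 bp for MCAF1 and Ring1b and at 150 to 350 bp for H4K20me3 and REST. No input library was used here, and the REST library is the only profile in which the members were not called.

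The MCAF1 library was the deepest, with 11023569 distinct reads on nuclear chromosomes, followed by H4K20me3 with 7782972, REST with 3129369 and Ring1b with 3083311. Depth set what could be called. At the genome mean a window needed 24 reads or 5.01-fold enrichment in the MCAF1 library, 14 reads or 10.4-fold in Ring1b, 20 reads or 5.91-fold in H4K20me3 and 14 reads or 10.3-fold in REST. Of 4598705 windows covered by any read, 0.0726% were called for MCAF1, 0.625% for Ring1b, 0.396% for H4K20me3 and 0.1% for REST.

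Fold over background at the members was highest for Ring1b and lowest, among the called profiles, for MCAF1, which is also the order of the folds that a call required. With all libraries thinned to equal depth, where 31 triple regions were found, MCAF1 (12.4) and H4K20me3 (12.1) had similar read densities and Ring1b (20.07) the highest. Those 31 had passed call limits made nearly equal by the thinning, so similar MCAF1 and H4K20me3 densities are partly set by the rule. In the highest window inside each region, Ring1b fold ranged from 3.19 to 89.98 with a median of 15.7, H4K20me3 fold from 1.34 to 29.2 with a median of 7.16, and MCAF1 fold from 5.01 to 42.9 with a median of 6.01. Ring1b had the highest fold of the called profiles in 442 of the 479 members (92.3%, 89.5% to 94.5%), H4K20me3 in 27 and MCAF1 in 10. The MCAF1 values lay close to the limit: 19 members held exactly 24 MCAF1 reads in their highest window, 154 had a fold of at most 5.5, and 37 had a fold over 10. A fold under 5 inside the MCAF1 region occurred at 52 members for H4K20me3 and at 3 for Ring1b, since an overlapping called window may reach into the MCAF1 region by only 500 bp.

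**Figure D1:**
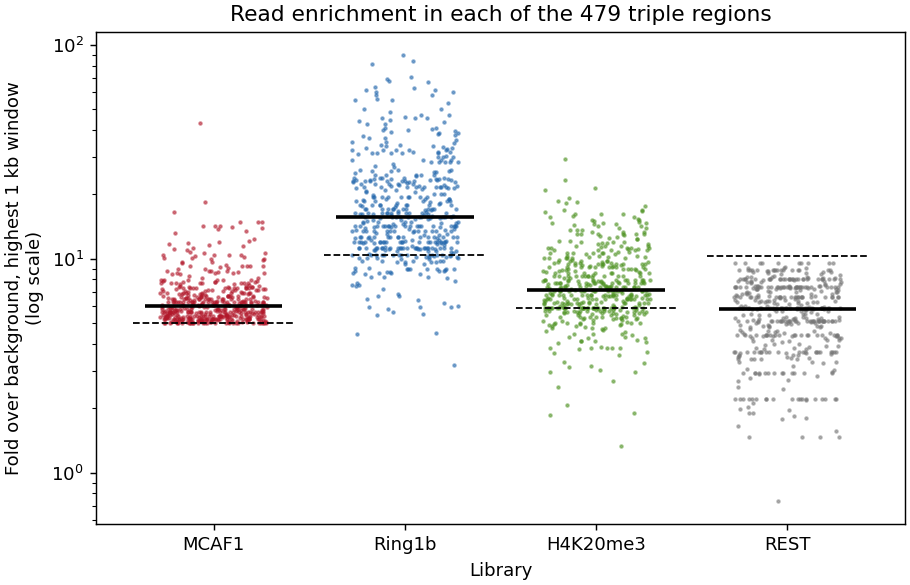
Fold over background of the highest 1 kb window inside each triple region (log axis), 1 point per region and 1 column per library; the solid line is the median and the dashed line is the fold needed for a call at the genome mean. MCAF1 points crowd just above their limit around a median of 6.01, Ring1b points spread from 3.19 to 89.98, and REST points lie below the 10.3-fold limit around a median of 5.82.

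Summed over the 621000 bp of all members, read density relative to the genome mean was 6.84 for MCAF1 (6.75 to 6.94, exact 95% Poisson interval), 19.7 for Ring1b (19.4 to 20.01), 8.16 for H4K20me3 (8.04 to 8.28) and 5.50 for REST (5.34 to 5.66). These intervals cover counting error only. The members took 0.185% of distinct MCAF1 reads, 0.532% of Ring1b reads, 0.220% of H4K20me3 reads and 0.148% of REST reads. REST density at these uncalled sites was therefore of the same order as that of MCAF1, on which the regions are centred.

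The members highest in all of the called profiles were ranked by the smallest of the MCAF1, Ring1b and H4K20me3 folds. The first lay on chromosome 14 at 104991001–104993500 (mm8), where the highest windows held 68 MCAF1 reads, 21 Ring1b reads, 62 H4K20me3 reads and 11 REST reads. These are folds of 14.2 for MCAF1 (11.01 to 18.0), 15.7 for Ring1b (9.69 to 23.9), 18.3 for H4K20me3 (14.0 to 23.5) and 8.08 for REST (4.03 to 14.5). The 3 called profiles were of similar height here, REST was lower than each of them, and its interval overlapped all of theirs.

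The second, on chromosome 1 at 188667501–188670500, was also the widest member at 3000 bp and held 78 MCAF1, 49 Ring1b, 52 H4K20me3 and 11 REST reads in its highest windows. Ring1b stood out with 32.6-fold enrichment (24.2 to 43.2), against 13.97-fold for MCAF1, 13.6-fold for H4K20me3 and 7.45-fold for REST (3.72 to 13.3). The third, on chromosome 13 at 3609501–3611000, was also highest in Ring1b, with 63 MCAF1 reads (13.1-fold), 43 Ring1b reads (32.1-fold), 45 H4K20me3 reads (13.3-fold) and 6 REST reads (4.41-fold, 1.62 to 9.60). The next 7 members by this measure lay on chromosomes 9, 9, 3, 14, X, 6 and 3, and in all of the first 10 the smallest fold was above 10, as it was in 16 members in total.

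Among those 10, the member on the X chromosome at 165341001–165342500 was set apart by its surroundings. It lay inside an H4K20me3 region of 14500 bp, with 125 H4K20me3 reads in its highest window (23.3-fold, 19.4 to 27.7) and H4K20me3 density of 16.5 times the genome mean in the 5 kb on each side. Flanking density there was 5.78 times for MCAF1, 2.54 times for Ring1b and 4.78 times for REST. The X member ended 0.214 Mb before the last read position of the chromosome. It also held 54 H4K20me3 and 34 Ring1b reads with 2 reported locations. By contrast, the member on chromosome 3 at 40804501–40806500 was isolated, with 50 MCAF1 reads (10.4-fold), 55 Ring1b reads (41.0-fold), 48 H4K20me3 reads (14.2-fold) and 8 REST reads (5.88-fold), and flanking densities between 0.588 and 1.06 in the 4 libraries.

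The highest single values were reached at other members, named here after their values were seen. The highest MCAF1 fold of the set lay on chromosome 5 at 138509001–138511000, with 247 MCAF1 reads in the highest window (42.9-fold, 37.7 to 48.6), 107 Ring1b reads (69.0-fold, 56.6 to 83.4), 27 H4K20me3 reads (6.49-fold, 4.28 to 9.44) and 9 REST reads (6.61-fold, 3.02 to 12.6). MCAF1 and Ring1b stood far above the other profiles there. The next highest MCAF1 fold of any member was 18.4 (14.7 to 22.6), on chromosome 3 at 67670001–67671500. The highest H4K20me3 fold was on chromosome 13 at 120607501–120609500, where H4K20me3 had 99 reads (29.2-fold, 23.8 to 35.6), MCAF1 34 reads (7.09-fold), Ring1b 19 reads (14.2-fold) and REST 8 reads (5.88-fold). That member ended 0.00483 Mb before the last read position of the chromosome.

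Ring1b was highest on chromosome 3 at 93528501–93530500, with 131 reads (89.98-fold, 75.2 to 107), against 32 MCAF1 reads (6.67-fold), 44 H4K20me3 reads (13.0-fold) and 8 REST reads (5.88-fold). A second member at 93532001–93534000 lay in the same Ring1b region of 6000 bp, with 71 MCAF1 reads (14.8-fold), 99 Ring1b reads (67.7-fold), 24 H4K20me3 reads (7.09-fold) and 10 REST reads (7.35-fold). MCAF1 was the lower of MCAF1 and H4K20me3 at the first of these members and the higher at the second, although the H4K20me3 intervals of both members overlapped.

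Read density relative to REST was used to describe how far each called profile exceeded a profile with no call at the members. Over all members the ratio was 1.24 for MCAF1 (1.21 to 1.29), 3.58 for Ring1b (3.47 to 3.70) and 1.48 for H4K20me3 (1.44 to 1.53). Density was above that of REST at 323 of 479 members for MCAF1 (67.4%), at 471 for Ring1b (98.3%) and at 378 for H4K20me3 (78.9%). These ratios carry a selection: members were picked for high counts in the called libraries and for lower counts in REST.

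To take out the part of that selection due to counting noise, reads were divided at random into 2 parts. Regions were called in the first part at a probability threshold of 3.16e-05, and reads were counted in the second. This gave 573 triple regions, of which 291 overlapped a member and 26 overlapped a REST region called on all reads. In the reads not used for calling, MCAF1 density was 5.68 times the genome mean (5.57 to 5.79) and REST density 5.82 times (5.61 to 6.03), a ratio of 0.976 (0.937 to 1.02). In the reads that made the calls the same ratio was 1.45. Ring1b density in unused reads was 18.6 times the genome mean (18.2 to 18.98), or 3.19 times REST (3.07 to 3.33). H4K20me3 density was 7.79 times (7.63 to 7.94), or 1.34 times REST (1.28 to 1.39). These ratios to REST were also lower than in the reads that made the calls, which gave 4.09 for Ring1b and 1.73 for H4K20me3. REST density in the reads that made the calls was 4.76.

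In unused reads, Ring1b and H4K20me3 were thus denser than REST at the triple regions, while for MCAF1 the interval of the ratio included 1. The regions were still chosen by calls in the called libraries and no call in REST. Ring1b and H4K20me3 densities above REST are therefore partly set by the rule. All 4 libraries were several-fold denser there than in the genome. How far these densities exceed those of unprecipitated chromatin was not tested, since no input library was used here.

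**Figure D2:**
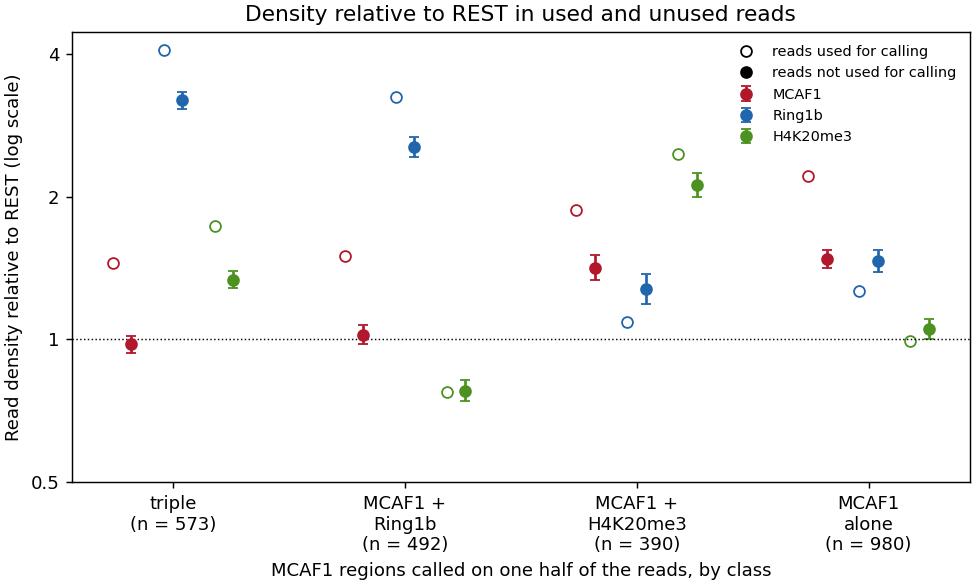
Read density relative to REST (log axis) in MCAF1 regions called on 1 of 2 random parts of the reads, by class of region; open circles are the reads used for calling, filled circles with 95% counting intervals are the reads not used. In the 573 triple regions the MCAF1 ratio is 1.45 in used and 0.976 in unused reads. It is 4.09 and 3.19 for Ring1b, and 1.73 and 1.34 for H4K20me3.

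The REST status of the members rested on the depth of that library. REST fold in the highest window ranged from 0.735 to 9.55 with a median of 5.82, and 310 of the 479 members (64.7%, 60.3% to 69.0%) had a REST fold of 5 or more without reaching the read number needed. Every member held at least 1 REST read. Among the members with the highest REST fold, that on chromosome 12 at 65883501–65886000 had 13 REST reads (9.55-fold, 5.09 to 16.3), beside 50 MCAF1 reads (10.4-fold), 21 Ring1b reads (15.7-fold) and 46 H4K20me3 reads (13.6-fold); 10 members shared this REST fold. The REST and MCAF1 values were alike there, and 1 further REST read would have taken the region out of the set. At the other end, the member on chromosome 5 at 109014501–109016000 had 2 REST reads (1.47-fold, 0.178 to 5.31), beside 30 MCAF1 reads (6.26-fold), 54 Ring1b reads (33.6-fold) and 40 H4K20me3 reads (11.8-fold). With the REST limit alone relaxed to 1e-06, 329 members remained free of REST, and with 1e-04, a setting chosen like the other after the data were examined, 175 remained.

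When REST reads of the same window, scaled to depth, were added as a lower limit of the background of the other libraries, 6 of the members were still called. They lay on chromosome 1 at 69310001–69311500, chromosome 10 at 12780501–12782000, chromosome 3 at 5558501–5560000, chromosome 19 at 27390001–27391500, chromosome 4 at 94543501–94545000 and chromosome 7 at 88152501–88153500, with between 1 and 6 REST reads in the highest window. The first of them had 41 MCAF1 reads (8.55-fold, 6.14 to 11.6), 38 Ring1b reads (28.3-fold, 20.1 to 38.9), 41 H4K20me3 reads (12.1-fold, 8.69 to 16.4) and 3 REST reads (2.20-fold, 0.455 to 6.44). On chromosome 10 the numbers were 48 MCAF1 reads (8.47-fold), 41 Ring1b reads (25.7-fold), 59 H4K20me3 reads (15.9-fold) and 3 REST reads (2.03-fold, 0.418 to 5.92). Low REST relative to the other libraries is what kept these members, so it is no result about them.

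The members were narrow. A width of 1000 bp was found in 239 of them (49.9%), 1500 bp in 202 (42.2%), 2000 bp in 33, 2500 bp in 4 and 3000 bp in 1. Ring1b regions that held them had a median width of 1500 bp and H4K20me3 regions likewise, and 391 members (81.6%) lay wholly inside the Ring1b region and 301 (62.8%) wholly inside the H4K20me3 region. The highest Ring1b window was the same as the highest MCAF1 window in 396 members (82.7%), that of H4K20me3 in 390 (81.4%) and that of REST in 399 (83.3%). Since 239 members are a single window wide, where the highest window is the same by construction, these shares say little about the position of each profile.

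Averaged around the centre of the highest MCAF1 window, all 4 profiles formed a single summit within 100 bp of that centre. Density in the central 1 kb was 7.89 times the genome mean for MCAF1, 22.7 for Ring1b, 8.84 for H4K20me3 and 6.21 for REST. From 3 to 5 kb away it was 1.39 for MCAF1, 1.97 for Ring1b, 1.40 for H4K20me3 and 1.38 for REST. The rise over those flanks was 5.69-fold for MCAF1, 11.5-fold for Ring1b, 6.33-fold for H4K20me3 and 4.49-fold for REST. H4K20me3 formed the broadest summit, 1300 bp wide at 50% of its rise, compared with 800 bp for MCAF1, 900 bp for Ring1b and 800 bp for REST. It was also the broadest in MCAF1 regions outside the set. There it was 1200 bp wide where only Ring1b was called besides MCAF1, and 1000 bp where only H4K20me3 was. Where MCAF1 alone was called it was likewise 1000 bp wide. The centre was chosen on MCAF1 reads, which sharpens the MCAF1 profile.

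**Figure D3:**
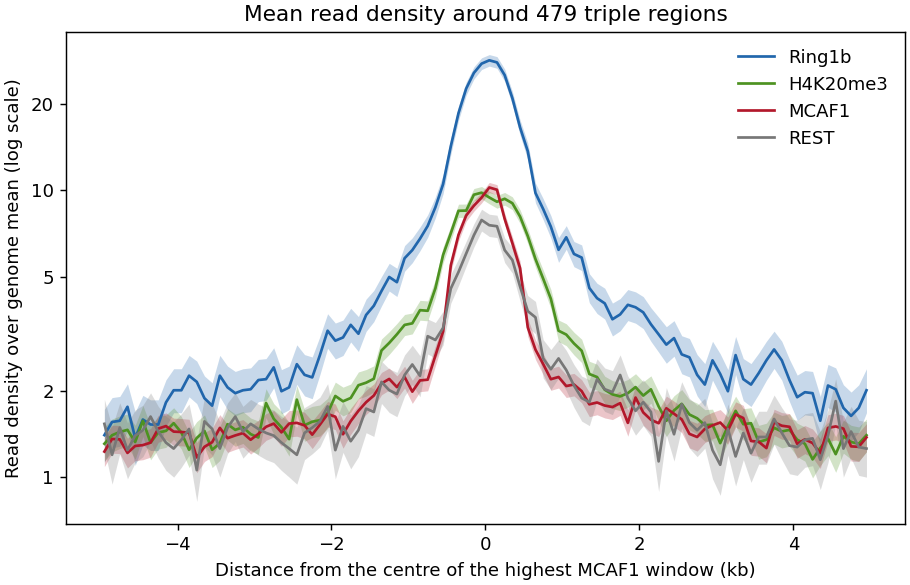
Mean read density over the genome mean (log axis) in bins of 100 bp, against distance in kb from the centre of the highest MCAF1 window, for the 479 triple regions; bands are 95% counting intervals. All 4 lines rise at the centre, to 22.7 for Ring1b and 6.21 for REST in the central 1 kb, and from 3 to 5 kb away they return to between 1.38 and 1.97.

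Members were split by the width of their Ring1b region, which rests on the same Ring1b reads and so separates Ring1b density by construction. In the 43 members whose Ring1b region was wider than 3 kb, Ring1b density was 48.9 times the genome mean (47.3 to 50.5), against 16.9 (16.6 to 17.2) in the 436 members in narrower Ring1b regions. MCAF1 density was 6.39 (6.08 to 6.70) in the wide ones and 6.89 (6.79 to 6.99) in the others, H4K20me3 density was 9.59 (9.14 to 10.04) and 8.02 (7.90 to 8.15), and REST density was 4.95 (4.46 to 5.49) and 5.55 (5.39 to 5.72). The large difference in Ring1b thus went with a small one in H4K20me3 in the same direction, and with slightly lower MCAF1 and REST values. Ring1b flanking density exceeded 5 at 60 members, that of H4K20me3 at 13, that of REST at 5 and that of MCAF1 at 3.

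Examples of members inside wide Ring1b regions lay on chromosome 2. At 147053001–147054500, inside a Ring1b region of 8500 bp, there were 157 Ring1b reads in the highest window (34.8-fold, 29.6 to 40.7), 24 MCAF1 reads (5.01-fold, 3.21 to 7.45), 27 H4K20me3 reads (7.98-fold, 5.26 to 11.6) and 3 REST reads (2.20-fold, 0.455 to 6.44). At 61616001–61617000, inside one of 6500 bp, there were 68 Ring1b reads (43.6-fold, 33.8 to 55.2), 27 MCAF1 reads (5.63-fold), 24 H4K20me3 reads (7.09-fold) and 2 REST reads (1.47-fold). These members were named for their low MCAF1 and low REST folds, and MCAF1 in wide Ring1b regions ranged up to 14.8-fold, at the chromosome 3 member at 93532001–93534000.

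Ordering by Ring1b fold, which also separates Ring1b by construction, gave a similar picture, except that MCAF1 was slightly higher with Ring1b. The 160 members with the highest Ring1b fold had a median of 29.0 for Ring1b, 6.29 for MCAF1, 8.30 for H4K20me3 and 5.26 for REST, against 10.4, 5.69, 6.50 and 5.499 for Ring1b, MCAF1, H4K20me3 and REST in the 159 with the lowest. Across the 479 members the Spearman correlation of folds was 0.212 for MCAF1 and Ring1b, 0.234 for MCAF1 and H4K20me3, 0.246 for Ring1b and H4K20me3, 0.183 for H4K20me3 and REST, 0.124 for MCAF1 and REST and -0.0237 for Ring1b and REST. These are descriptions of weakly related values cut off by the calling limits, and the points share their libraries and depth.

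The 17 members inside H4K20me3 regions wider than 3 kb had an H4K20me3 density of 13.1 (12.3 to 13.8) and a Ring1b density of 25.2 (23.6 to 26.9), against 7.93 for H4K20me3 (7.81 to 8.06) and 19.5 for Ring1b (19.2 to 19.8) in the other 462. MCAF1 density was 6.73 (6.29 to 7.19) in these and 6.85 (6.75 to 6.94) in the other 462, a difference within counting error.

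Other MCAF1 regions without a REST call give the frame for these values. They comprised 414 regions with Ring1b only, 288 with H4K20me3 only and 522 with neither. MCAF1 density, for which every class had passed the same limit on the same reads, was 6.84 in triple regions, 7.09 with Ring1b only, 7.15 with H4K20me3 only and 6.78 with neither. Unused reads were counted in other regions, those called on 1 of 2 random parts of the reads. They were 573 triple regions, 492 with Ring1b only, 390 with H4K20me3 only and 980 with neither. MCAF1 density in unused reads was 5.68 for these triple regions (5.57 to 5.79) and 5.61 with Ring1b only (5.49 to 5.73). It was 5.67 with H4K20me3 only (5.54 to 5.81) and 4.40 with neither (4.33 to 4.48). In the regions called on all reads, Ring1b density was 19.7 in triple regions (19.4 to 20.01) and 16.2 with Ring1b only (15.9 to 16.5). H4K20me3 density was 8.16 in triple regions (8.04 to 8.28) and 9.66 with H4K20me3 only (9.49 to 9.83). These classes were cut by the same reads, and the differences were not tested.

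REST density, for which these 4 classes were held to the same limit, was 5.50 in triple regions, 5.60 with Ring1b only (5.43 to 5.78), 4.20 with H4K20me3 only (4.02 to 4.38) and 3.48 with neither (3.36 to 3.61). A REST fold of 5 or more occurred in 64.7% of triple regions, 51.2% of those with Ring1b only, 35.8% of those with H4K20me3 only and 19.9% of those with neither. REST reads below the calling limit were thus densest where Ring1b was called. The ratio of MCAF1 to REST in unused reads was again counted in the regions called on 1 part of the reads. It was 0.976 for triple regions, 1.02 with Ring1b only (0.976 to 1.07), 1.42 with H4K20me3 only (1.34 to 1.50) and 1.48 with neither (1.41 to 1.55).

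**Figure D4:**
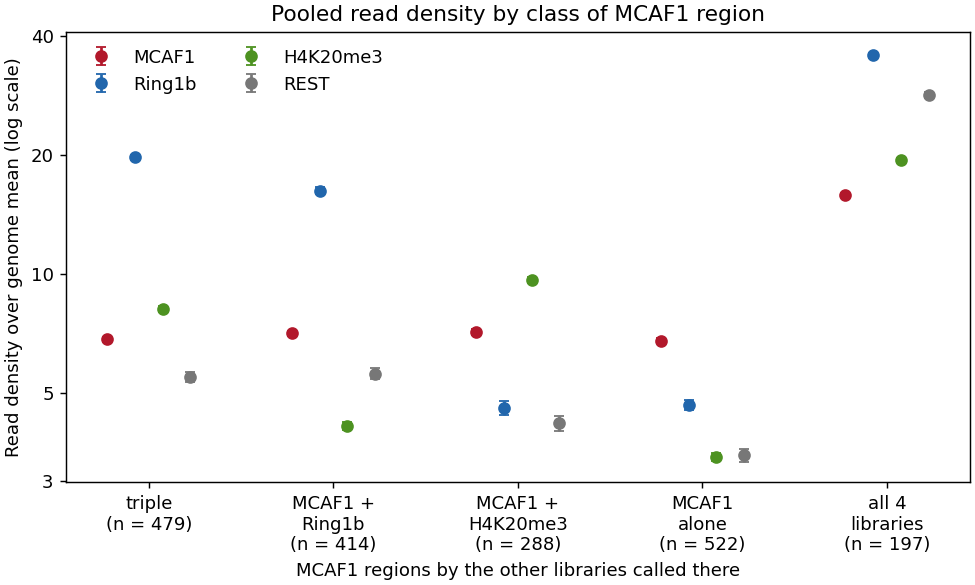
Pooled read density over the genome mean (log axis) for each library in MCAF1 regions grouped by the other libraries called there; bars are 95% counting intervals, mostly smaller than the points. MCAF1 lies between 6.78 and 7.15 in the 4 classes without REST, while REST is 5.50 in triple regions, 5.60 with Ring1b only and 3.48 where neither Ring1b nor H4K20me3 was called.

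From 3 to 5 kb away H4K20me3 density was 1.40 around triple regions, 1.51 around those with Ring1b only, 2.95 around those with H4K20me3 only and 1.76 around those with neither. MCAF1 flanks followed a similar order, at 1.39 around triple regions, 1.51 with Ring1b only, 1.99 with H4K20me3 only and 1.65 with neither, and so did REST flanks, at 1.38, 1.42, 1.89 and 1.52. Ring1b flanks did not. They were highest around triple regions, at 1.97, against 1.74 with Ring1b only, 1.64 with H4K20me3 only and 1.77 with neither. The median H4K20me3 density in the 5 kb on each side was 1.42 both for triple regions and for those with Ring1b only. H4K20me3 rose 6.33-fold over its flanks in triple regions and 3.43-fold in regions with H4K20me3 but no Ring1b. H4K20me3 regions wider than 3 kb lay at 3.55% (2.08% to 5.62%) of triple regions and at 10.4% (7.14% to 14.5%) of regions with H4K20me3 but no Ring1b. The members thus sat less often in long H4K20me3 blocks than did regions with H4K20me3 but no Ring1b. The libraries allow no test of this difference over replicates. Among all 9463 H4K20me3 regions, 121 were wider than 3 kb. A member was present in 13.2% of these, against 4.38% of those up to 1500 bp. Wider regions offer more length for an overlap, and shares per bp were not computed.

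Reads with 2 reported locations took no part in the rule, but their share of alignments does depend on it, since the remaining alignments are those that the rule required to be dense. Of all alignments in the members, those from such reads made up 2.26% for MCAF1 (2.08% to 2.45%), 3.82% for Ring1b (3.54% to 4.10%), 3.68% for H4K20me3 (3.41% to 3.96%) and 5.20% for REST (4.63% to 5.81%), against 6.41%, 10.8%, 6.88% and 12.02% of the whole MCAF1, Ring1b, H4K20me3 and REST libraries. In regions with H4K20me3 but no Ring1b the shares were 15.8% for MCAF1 (15.3% to 16.3%) and 20.1% for H4K20me3 (19.5% to 20.7%), and in regions called in all 4 libraries they were 47.3% and 33.5%. These shares do not give the amount of 2-location sequence in the members relative to the genome. In regions with Ring1b only the shares were 1.66% for MCAF1 (1.49% to 1.84%) and 3.08% for H4K20me3 (2.70% to 3.49%). At least 1 read with 2 locations fell in 257 of the members and none in the other 222. Ring1b density was 21.7 (21.2 to 22.1) in the 257 and 17.3 (16.8 to 17.7) in the 222, while MCAF1 density was 6.93 and 6.73, H4K20me3 density 8.29 and 7.996, and REST density 5.39 and 5.63.

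**Figure D5:**
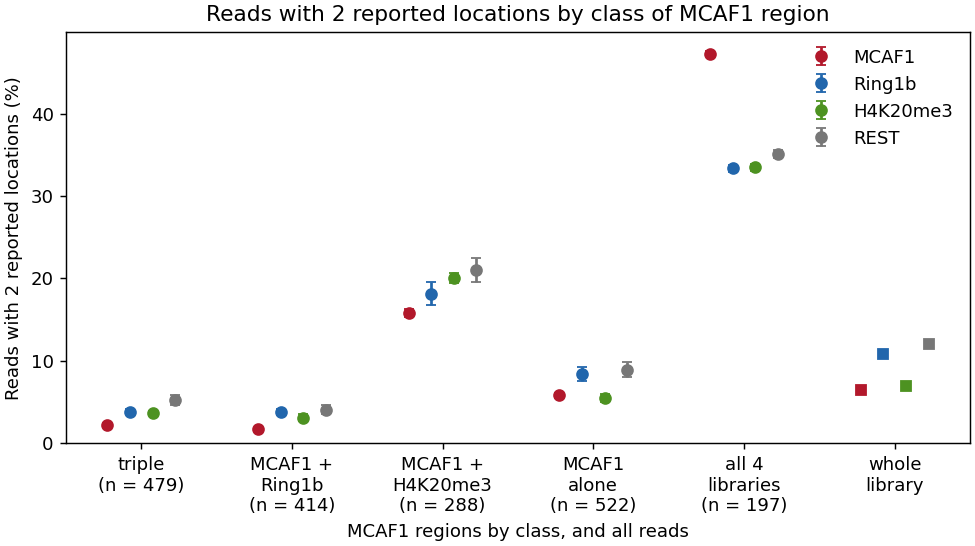
Percent of alignments from reads with 2 reported locations, by class of MCAF1 region and library; bars are 95% counting intervals and squares are whole libraries. In triple regions the 4 libraries lie between 2.26% and 5.20%, below their whole-library values, while in regions called in all 4 libraries they lie between 33.4% and 47.3%.

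Repeated read positions, which were removed before calling, took 14.4% of MCAF1 reads in the members (13.9% to 14.8%), 6.58% of Ring1b reads, 3.83% of H4K20me3 reads and 13.9% of REST reads, against 12.2%, 6.31%, 2.06% and 12.6% in the whole MCAF1, Ring1b, H4K20me3 and REST libraries. The MCAF1 share was similar with Ring1b only (13.9%), with H4K20me3 only (16.0%) and with neither (15.3%). In regions called in all 4 libraries the shares were 51.5% for MCAF1, 43.9% for Ring1b, 31.9% for H4K20me3 and 41.7% for REST. Reads in the members were balanced between strands, with 49.8% of MCAF1, 49.9% of Ring1b, 49.8% of H4K20me3 and 50.5% of REST reads on the plus strand.

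Most members had no other member within 10 kb. Another member lay within 10 kb of 20 of them (4.18%, 2.57% to 6.38%), in 10 pairs and no longer run, and 166 (34.7%, 30.4% to 39.1%) had another MCAF1 region of any class within 100 kb. Besides the chromosome 3 pair named above, a pair on chromosome 2 lay at 178336001–178337500 and 178342501–178343500. The first had 42 MCAF1, 47 Ring1b (32.8-fold), 48 H4K20me3 (10.1-fold) and 12 REST reads (7.90-fold), and the second 41 MCAF1, 91 Ring1b (63.6-fold), 35 H4K20me3 (7.39-fold) and 3 REST reads (1.98-fold). The Ring1b fold of the second was higher, with intervals apart, while the intervals of the other libraries overlapped.

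In another pair, on chromosome 13, the members at 28960501–28961500 and 28965001–28966500 had 38 MCAF1 reads each (6.49-fold), with 36 and 26 Ring1b reads, 18 and 42 H4K20me3 reads and 5 and 8 REST reads. A pair on chromosome 14 at 49846001–49847500 and 49852001–49854000 had 68 and 42 MCAF1 reads, 21 and 25 Ring1b reads, 33 and 25 H4K20me3 reads and 9 REST reads each. The H4K20me3 intervals of the chromosome 13 pair did not overlap, while those of the chromosome 14 pair overlapped in every library. A pair on chromosome 19 at 8780001–8781500 and 8789501–8791000 also had overlapping intervals in every library, with 39 and 42 MCAF1 reads, 22 and 18 Ring1b reads, 30 and 24 H4K20me3 reads and 11 and 7 REST reads.

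The number of members per Mb of covered sequence was highest among the autosomes on chromosome 13, at 0.370 (0.263 to 0.506, 39 members), and lowest on chromosome 12, at 0.116 (0.0598 to 0.202, 12 members). The X chromosome had 3 members, or 0.0263 per Mb (0.00542 to 0.0769), of 25 MCAF1 regions of any class. The genome mean was the lowest background allowed, also on chromosomes with few reads. On autosomes the members made up between 14.5% (chromosome 12) and 30.8% (chromosome 15) of MCAF1 regions. The last 2 Mb of the chromosomes held 13 members (2.71%, 1.45% to 4.60%) and the first 2 Mb with reads held 18 (3.76%, 2.24% to 5.87%), compared in the first 2 Mb with 4.35% of regions with Ring1b only, 3.82% with H4K20me3 only, 2.30% with neither and 18.3% (13.1% to 24.4%) of those called in all 4 libraries.

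Seen from the other profiles, the members were a small part. Of 10580 Ring1b regions 476 held a member (4.50%, 4.11% to 4.91%), and of 9463 H4K20me3 regions 476 did so (5.03%, 4.60% to 5.49%). By width, a member was present in 4.01% of Ring1b regions up to 1500 bp, 6.12% of those from 2000 to 3000 bp and 4.72% of the 890 wider ones. For H4K20me3 the shares were 4.38%, 7.54% and 13.2% (7.75% to 20.6%) of regions up to 1500 bp, from 2000 to 3000 bp and of the 121 wider ones. These shares were not adjusted for region length.

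Many regions lay close to the edges of the set. Just inside, 24 MCAF1 reads (5.01-fold, 3.21 to 7.45) were found for example on chromosome 2 at 22977501–22978500, with 14 Ring1b reads (10.4-fold), 37 H4K20me3 reads (10.9-fold) and 10 REST reads (7.35-fold), and on chromosome 3 at 14587501–14588500, with 14 Ring1b reads (10.4-fold), 20 H4K20me3 reads (5.91-fold) and 11 REST reads (8.08-fold). Just outside, the region on chromosome 6 at 124930001–124931500 had 53 MCAF1 reads (5.57-fold), 47 Ring1b reads (16.7-fold), 37 H4K20me3 reads (4.96-fold) and 11 REST reads (4.04-fold), and missed the H4K20me3 limit at 0.974 of the reads needed. H4K20me3 reached at least 0.9 of the reads needed in 87 of the 414 regions with Ring1b only, and Ring1b did so in 33 of the 288 regions with H4K20me3 only. On the REST side, 37 members had at least 0.9 of the REST reads needed for a call, and 58 of the 197 regions called in all 4 libraries exceeded that limit by at most 1.1 times. The size of the set followed the limits: it was 830 regions at a fold minimum of 3, 37 at a fold minimum of 8, 295 at a probability of 1e-12 and 31 with all libraries thinned to the depth of the shallowest.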

How the data were processed

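Per the file headers and the layout text, the deposited files list signed genome positions of aligned reads, 1 entry per alignment, a unit of its own (other) that the authors did not normalise and that is not a count per feature. Per the file headers, the authors aligned reads to mm8 with Bowtie (version not stated there), reporting up to 2 locations per read, with a seed of 36 bases for MCAF1 and H4K20me3 and 26 bases for Ring1b and REST. Reads with 1 location were used, 1 was kept per position and strand, and each was moved 75 bp towards its 3′ end; whether a minus-strand position denotes its read's left end or its 5′ end is not stated. The members, comparisons and named regions were chosen with earlier results of these data known. The named regions were the 10 with the highest smallest fold, the 3 widest, the 3 lowest by MCAF1 and the 3 just outside, the 3 highest and 3 lowest by REST, and all pairs within 10 kb; several tied, and the text gives examples. Coordinates count from 1. Gene names and sequences were not used here, since the tables at hand belong to another assembly. The caller was run on simulated data with planted regions. Counts were drawn independently for each library and nothing was planted in REST. That run therefore cannot address enrichment that the other libraries share with REST. Alternatives changed the probability, the fold minimum, the shift, the background, the overlap, the depth and the reads admitted; in one, regions were called on 1 of 2 random parts of the reads and counted in the other. Numerical work used numpy 2.4.6 and scipy 1.17.1 under Python 3.11.15, with plots from matplotlib 3.10.9. Sequenced fragments are not independent molecules, so intervals (95%) cover counting error only.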

Additional observations from a re-analysis of the deposited data

Results flagged for a closer look

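Reads with 2 reported locations were outside the region calls and are listed here because they were present in the members at all: 550 alignments for MCAF1, 697 for Ring1b, 681 for H4K20me3 and 296 for REST, with at least 1 of any library in 257 of the 479 members. With no control library used here, the level they are set against is a count of 0.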

How the results depend on the processing

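The number of triple regions, 479 as reported, stayed within 1.5 times under 8 of 14 alternatives. It was 830 at a fold minimum of 3, 37 at a fold minimum of 8, 295 at a probability of 1e-12, 31 after thinning to equal depth, 6 with REST reads as further background and 175 with a REST threshold of 1e-04. Members shared with the main set numbered 476, 36, 247, 29, 6 and 175 in that order. Only 329 members were shared at 1e-06 and 296 with a local background of 100 kb, where 445 and 368 regions were found.

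Read densities outside the counting interval of the reported values were as follows, for MCAF1, Ring1b, H4K20me3 and REST in that order: 6.58, 17.7, 7.72 and 4.59 at 1e-06; 7.68, 21.5, 9.28 and 6.43 at 1e-12; 9.94, 20.6, 10.96 and 5.28 at a fold minimum of 8; 12.4, 20.07, 12.1 and 6.19 after thinning; 6.29, 21.01, 9.45 and 0.735 with REST reads as background; 5.68, 18.6, 7.79 and 5.82 in unused reads. A fold minimum of 3 gave 6.55 for MCAF1, 19.3 for Ring1b and 5.77 for REST. With all reads kept REST was 5.13. Adding reads with 2 locations gave 18.4 for Ring1b, 8.58 for H4K20me3 and 5.17 for REST. Requiring overlap of 50% of the MCAF1 region gave 20.04 for Ring1b and 8.36 for H4K20me3. A local background of 100 kb gave 6.97 for MCAF1, 19.2 for Ring1b and 7.86 for H4K20me3. With REST thresholds of 1e-06 and 1e-04, chosen after the data were examined, MCAF1 was 6.74 at the first, Ring1b 20.5 and H4K20me3 8.003 at the second, and REST 4.60 and 3.83. Ring1b was the densest and all 4 libraries were above the genome mean under each of these alternatives, except REST with its own reads as background; shifts of 50 and 100 bp moved no density beyond its interval. The cause of these shifts was not tested, beyond the construction of each alternative. No paired analysis was possible because each antibody had 1 library.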

Other observations

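Pairs of reads on opposite strands were counted in a fixed span around the centre of the highest MCAF1 window of each member. This span was wider than most members. Such pairs were most frequent, in a search from 40 to 300 bp, at an offset of 77 bp for MCAF1, 115 bp for Ring1b, 102 bp for H4K20me3 and 91 bp for REST. At these offsets they were 2.82, 2.08, 2.19 and 2.45 times as frequent for MCAF1, Ring1b, H4K20me3 and REST as at offsets of 500 to 1000 bp. At the shortest offsets, below the range searched, the same ratio was 2.30 for MCAF1, 1.96 for Ring1b, 1.997 for H4K20me3 and 1.57 for REST. The REST offset lay among those of the called libraries. Since the meaning of a minus-strand position is not stated, these offsets cannot be read as fragment lengths.

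Identical read positions in 2 libraries were compared with matches at offsets of 20 to 60 bp in the members. MCAF1 and H4K20me3 shared 441 positions, 1.28 times the number at those offsets (1.17 to 1.41), MCAF1 and Ring1b 451 (1.08 times, 0.980 to 1.18), MCAF1 and REST 130 (1.20 times, 0.999 to 1.42) and Ring1b and H4K20me3 330 (1.16 times, 1.04 to 1.29). For Ring1b and REST the ratio was 1.04 (0.825 to 1.28), and for H4K20me3 and REST 0.980 (0.775 to 1.22). In regions with H4K20me3 but no Ring1b, MCAF1 and H4K20me3 shared 607 positions, 2.12 times the number at those offsets (1.96 to 2.30). Every pair of libraries was raised in that class, for example MCAF1 and Ring1b at 1.63 times, MCAF1 and REST at 1.71 times and H4K20me3 and REST at 1.75 times.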
